A study of Drosophila melanogaster with 6 samples.

Results

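The genes described here are 10 genes of the unfolded protein response and of protein folding in the endoplasmic reticulum (ER) of Drosophila. They were picked by symbol, with earlier results of these data known. They are Xbp1, Ire1, PEK, Atf6, Hsc70-3, Gp93, Calr, Cnx99A, Pdi and ERp60. Of the 10, 8 were matched to probe sets that the array annotation assigns to them alone, 9 probe sets in all among 18769 tested. No probe set was matched to Xbp1 or Calr in the annotation used, so these genes are not analysed here. A probe set is a group of short oligonucleotides on the array whose signals are summarised into 1 log2 value. With 1 probe set kept per gene, the one with the highest mean signal, 11982 genes were measured.

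Total RNA was measured on 6 Affymetrix arrays, 1 per sample, from S2, a Drosophila cell line with features of blood cells that was first grown from embryos. The 3 dBigH1 induced samples came from cells carrying dBigH1::FLAG, a tagged form of the embryonic linker histone BigH1, and the 3 S2 control samples from cells described as wild type. All samples were treated with 1 mM copper sulphate for 24 h, and the control cells are not described as carrying an empty vector. The dBigH1::FLAG cells were kept in hygromycin B before the experiment, and the labels do not say whether they are 1 clone or whether replicates were grown separately. The p-values thus reflect the variation among these samples alone, and that variation could be technical.

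When unfolded proteins build up in the ER, the membrane sensors Ire1, PEK and Atf6 are activated. Ire1 cuts the mRNA of the transcription factor Xbp1 so that its active form is made, PEK phosphorylates eIF2alpha, which lowers translation and favours that of ATF4, and Atf6, as known from mammals, releases a transcription factor by cleavage in the Golgi. Together they are known to raise the genes of ER chaperones and oxidoreductases, of which the BiP gene Hsc70-3 is a classic target. The sensors act as proteins, and neither their activity nor the splicing of Xbp1 was measured here.

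BigH1 itself averaged a log2 signal of 13.46 ± 0.0218 in dBigH1 induced cells and 5.19 ± 0.295 in S2 control cells (SD, n = 3 each), a log2 change of 8.27. The array medians lay between 6.305 and 6.331. All 11 marker genes of plasmatocytes and S2 cells had a mean signal above the median of all values, 6.315, in both groups. Among those 11, 5 rose and 3 fell in induced cells, where 14.5% of all genes rose and 16.0% fell. Named after their values were seen, the falls were those of Sr-CI (log2 change -1.09), He (-0.71) and NimC1 (-0.35). The rises were those of Pxn (0.65), srp (0.50), Col4a1 (0.40), vkg (0.36) and eater (0.24). Sr-CI averaged 7.65 in S2 control and 6.56 in induced cells. NimC1, at 6.33 in induced cells, lay close to that median. Of the markers of other cell types, 1 of 6 fat body genes was above that median in induced cells and 0 of 6 in S2 control cells, against 4 of 5 germline genes and 3 of 4 neuron genes in each group. Of these 1 fat body gene rose, 1 germline gene rose and 1 fell, and 0 of 4 neuron genes passed in limma (1 at an unadjusted p under 0.05). The germline gene that rose was bam, at 10.06 in induced and 9.44 in S2 control cells, and the one that fell was aub, at 9.66 in induced and 10.28 in S2 control cells (log2 change 0.62 and -0.62, adjusted p = 4.33e-05 and 7.41e-05 in limma; both named after their values were seen). The germline marker vas was dim, at 3.49 in induced and 3.59 in S2 control cells. Averaged over its genes, each list's log2 level on single arrays ran from 5.32 to 5.42 in induced cells and from 5.23 to 5.37 in S2 control cells for fat body. It ran from 7.68 to 7.74 in induced and from 7.68 to 7.74 in S2 control cells for germline, and from 7.74 to 7.81 in induced and from 7.75 to 7.80 in S2 control cells for neurons. A sign of RNA quality is the log2 signal of a control transcript at its 5′ end minus that at its 3′ end, which for the control series of Act5C was -1.79 ± 0.0778 in induced cells and -1.26 ± 0.0869 in S2 control cells (SD, n = 3 each). In the 5 other control series of the fly the same measure differed by -0.08 to 0.19 (induced minus S2 control). The part of these differences in the results below was not tested.

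The question put to the data was whether these genes differed in RNA level between dBigH1 induced and S2 control cells. ERp60 rose and Atf6 fell, ERp60 by 11.5% on the linear scale and Atf6 to 0.871 of its S2 control level, and the other 6 measured genes did not pass. The BiP gene Hsc70-3 and the Hsp90-family gene Gp93 had fold changes of 1.00 and 1.01. A gene passed where its adjusted p was under 0.05 in limma, with Benjamini-Hochberg adjustment over all 18769 probe sets. By that rule 2 of 8 measured genes passed, 1 in each direction, while 30.5% of all genes passed, 14.5% higher and 16.0% lower in induced cells. The median log2 change of the 8 genes was 0.01 and their median size of change 0.06, beside -0.01 and 0.11 over all genes.

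Among the sensors, Ire1, the kinase and endoribonuclease that processes Xbp1 mRNA, was read by a pair of probe sets. The brighter had log2 signals of 10.96, 10.86 and 10.74 on the dBigH1 induced arrays and 10.97, 10.84 and 11.06 on the S2 control arrays. The groups overlapped, and the log2 change of -0.11 (SE 0.08, adjusted p = 0.364 in limma) did not pass. The dimmer read 10.45, 10.40 and 10.37 on the induced arrays and 10.66, 10.50 and 10.57 on the S2 control arrays. All 3 induced arrays were below all 3 S2 control arrays there, with a log2 change of -0.17 (SE 0.06, 95% interval -0.30 to -0.04), and the adjusted p of 0.0594 in limma missed the threshold. Both probe sets had a negative change, and neither passed. The spread within groups also differed between them, with an SD of 0.113 in induced and 0.110 in S2 control cells for the brighter and of 0.0396 in induced and 0.0806 in S2 control cells for the dimmer.

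PEK, the Drosophila PERK kinase that phosphorylates eIF2alpha, read 10.23, 10.20 and 10.29 on the induced arrays and 10.20, 10.26 and 10.19 on the S2 control arrays. The groups overlapped, and the log2 change was 0.03 (SE 0.05, 95% interval -0.09 to 0.14, adjusted p = 0.772 in limma). On the linear scale that interval runs from -6.07% to 10.5%.

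Atf6, the sensor that is itself the precursor of a transcription factor, had log2 signals of 7.90, 7.86 and 7.88 on the induced arrays and 7.97, 8.16 and 8.11 on the S2 control arrays. The 3 induced arrays lay close together, below every S2 control array, and the lowest S2 control array, replicate 1, was 0.07 above the highest induced one. Atf6 averaged 7.88 ± 0.0194 in induced cells and 8.08 ± 0.0960 in S2 control cells (SD, n = 3 each). Its log2 signal fell by 0.20 (SE 0.06, 95% interval -0.33 to -0.07, adjusted p = 0.0329 in limma). This call did not hold without any 1 of the 3 induced arrays (adjusted p = 0.0674, 0.102 and 0.0870 without replicate 1, 2 and 3), nor without S2 control replicate 2 (0.0881) or 3 (0.0918). Without S2 control replicate 1 the adjusted p was 0.0120. Its probe set carries the suffix s and is of the kind that can match transcripts of more than 1 gene, although the annotation names Atf6 alone.

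**Figure D1:**
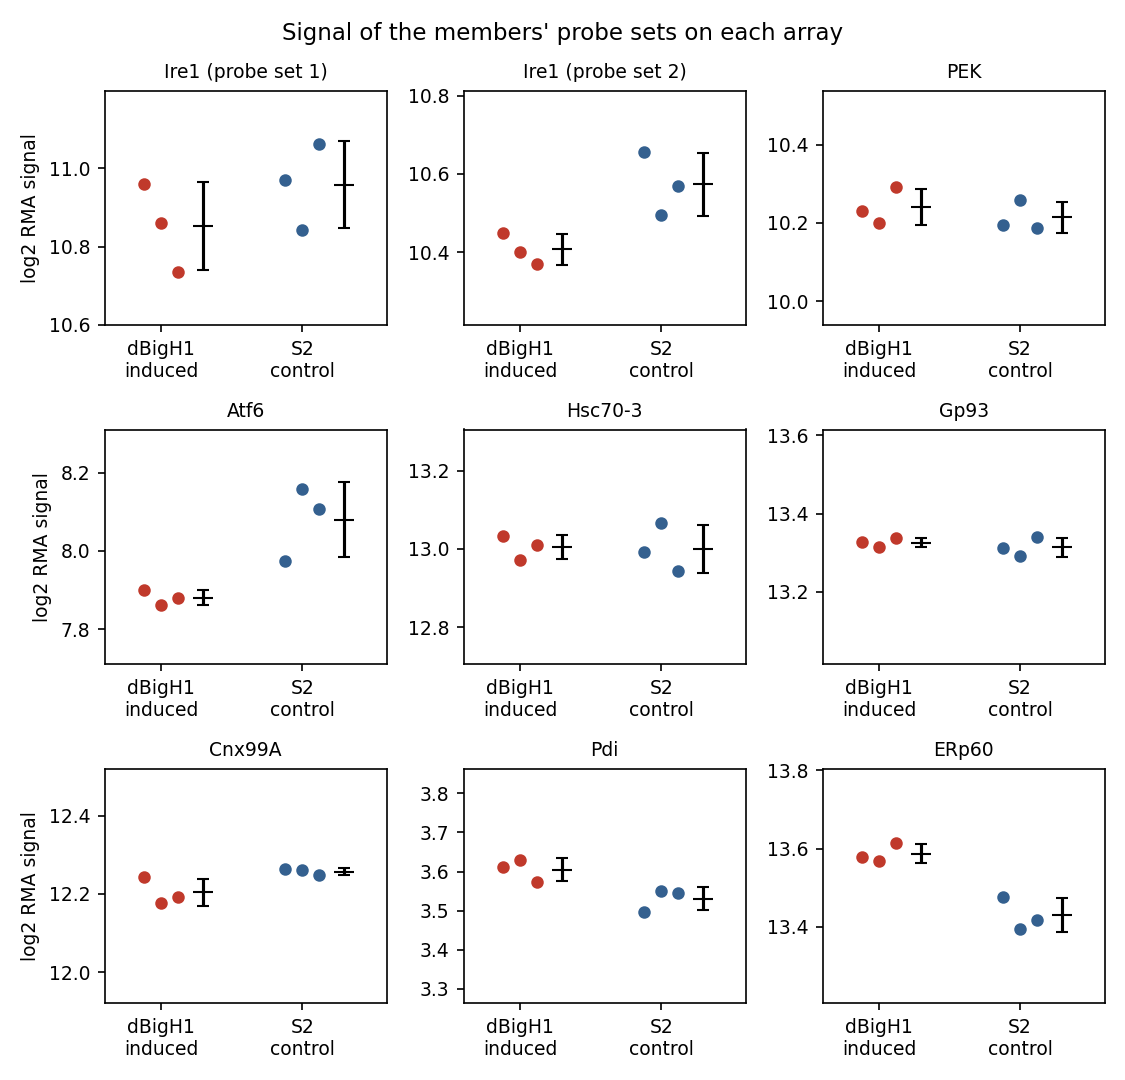
Each panel plots the log2 RMA signal of 1 probe set on the 3 dBigH1 induced arrays (red, left) and the 3 S2 control arrays (blue, right), with the mean and SD in black; every panel spans the same log2 range around its own centre. The groups stand apart for ERp60 (induced 13.57 to 13.62, S2 control 13.39 to 13.48) and Atf6 (induced 7.86 to 7.90, S2 control 7.97 to 8.16). By smaller gaps they also stand apart for the dimmer Ire1 probe set, Pdi and Cnx99A. The groups overlap for Hsc70-3, Gp93, PEK and the brighter Ire1 probe set.

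The chaperones came next. Hsc70-3, the ER Hsp70 known as BiP, which holds unfolded chains and also keeps the sensors inactive, read 13.03, 12.97 and 13.01 on the induced arrays and 12.99, 13.07 and 12.94 on the S2 control arrays. All 3 induced arrays lay inside the range of the S2 control arrays, and the log2 change was 0.00 (SE 0.05, adjusted p = 0.974 in limma). The 95% interval of the difference ran from -7.76% to 8.95% on the linear scale. The size of its change was larger than that of 2.09% of all genes. Its probe set also carries the suffix s and can match transcripts of more than 1 gene.

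Gp93, the ER member of the Hsp90 family, known as GRP94 in mammals, read 13.33, 13.31 and 13.34 on the induced arrays and 13.31, 13.29 and 13.34 on the S2 control arrays. The groups overlapped, and the log2 change was 0.01 (SE 0.05, adjusted p = 0.896 in limma), with a 95% interval from -6.41% to 8.63% on the linear scale. The size of its change was larger than that of 6.84% of all genes.

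Cnx99A encodes calnexin, the membrane lectin that binds newly made glycoproteins through their trimmed sugar chain. It read 12.24, 12.18 and 12.19 on the induced arrays and 12.26, 12.26 and 12.25 on the S2 control arrays. Every induced array was below every S2 control array, by 0.0048 at the closest, and the log2 change of -0.05 (SE 0.05, adjusted p = 0.488 in limma) did not pass. Its S2 control arrays had the smallest spread among the 9 probe sets, an SD of 0.00848. Its probe set also carries the suffix s.

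Of the disulphide isomerases, which make and rearrange disulphide bonds in the ER, ERp60, a relative of mammalian PDIA3, which works with calnexin, read 13.58, 13.57 and 13.62 on the induced arrays and 13.48, 13.39 and 13.42 on the S2 control arrays. Every induced array was above every S2 control array. ERp60 averaged 13.59 ± 0.0248 in induced cells and 13.43 ± 0.0427 in S2 control cells (SD, n = 3 each). Its log2 signal rose by 0.16 (SE 0.05, 95% interval 0.04 to 0.27, adjusted p = 0.0441 in limma). The call did not hold without any 1 of the induced arrays (adjusted p = 0.0905, 0.0974 and 0.146 without replicate 1, 2 and 3), without S2 control replicate 2 (0.0901) or 3 (0.106), or with the arrays centred on ribosomal protein probe sets (0.0833). Without S2 control replicate 1 the adjusted p was 0.0475. Pdi, the classical disulphide isomerase, had a dim probe set with signals of 3.61, 3.63 and 3.57 on the induced arrays and 3.50, 3.55 and 3.55 on the S2 control arrays. The induced arrays were all above the S2 control arrays, but the log2 change of 0.07 (SE 0.05, adjusted p = 0.325 in limma) did not pass. All 6 signals were below the array medians, where background compresses differences, so a change of Pdi RNA may not show in this probe set. Which Pdi transcripts it reads was not checked here.

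**Figure D2:**
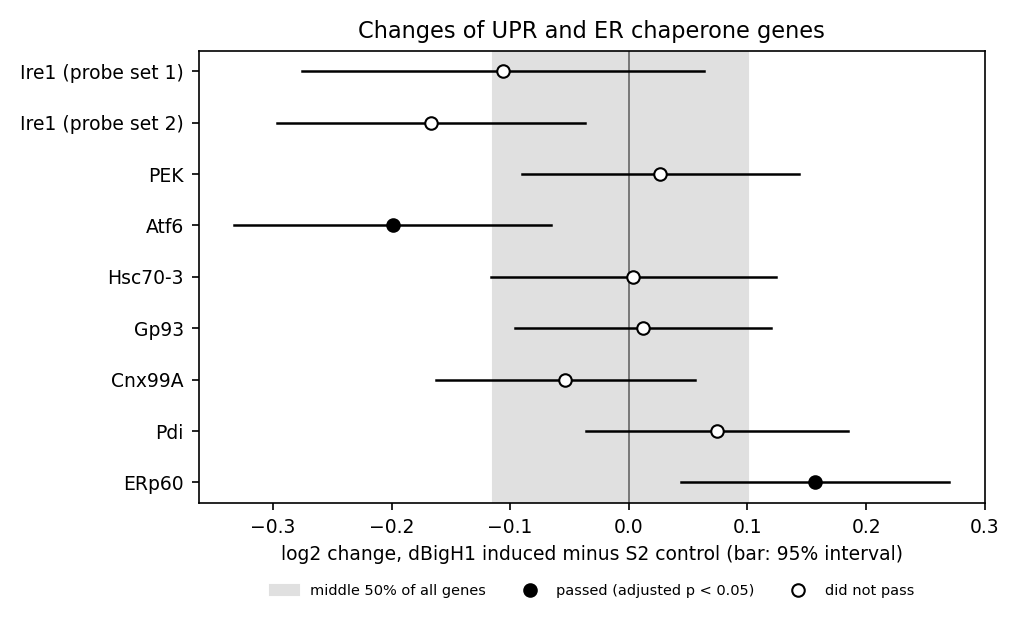
Points are the log2 changes of the 9 probe sets, dBigH1 induced minus S2 control, with 95% intervals from limma, filled where the adjusted p was under 0.05; the grey band lies between the quartiles of all genes, -0.11 and 0.10. Atf6 at -0.20 and ERp60 at 0.16 are the filled points, and the intervals of PEK, Hsc70-3, Gp93, Cnx99A, Pdi and the brighter Ire1 probe set include 0.

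For 4 of the 8 genes every array of one group was above every array of the other (ERp60 and Pdi higher, Atf6 and Cnx99A lower in induced cells), and the same held for 45.4% of all genes. Without Pdi the count was 3 of 7 and the median log2 change 0.0036. The changes of the 8 genes ran from -0.20 to 0.16. In size, the change of Atf6 exceeded that of 71.3% of all genes and that of ERp60 63.3%. The signals of Hsc70-3, Gp93 and ERp60 were 12.94 to 13.62 on all arrays, not far below the array maxima of 14.31 to 14.36. A bright signal can compress differences, and whether it did so here was not tested. RMA also makes the distributions of the arrays alike, so a change shared by all transcripts would not show.

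The surroundings of these genes were followed in 6 lists of ER and secretory pathway genes, chosen with earlier results of these data known. Of their 65 measured genes 18 rose (27.7%), 4 fell (6.15%) and 43 did not pass, where 14.5% of all genes rose and 16.0% fell. Without any 1 array other than S2 control replicate 2, the number that fell was 2. The median log2 change of the 65 was 0.05. Most of these genes were bright. Above the median of all values in each group were 15 of 17 other ER folding factors and 15 of 16 genes of the translocon, signal recognition and signal peptidase list. Every measured gene of the remaining lists was above it too. The shares over all genes also cover dim genes, and the part of signal level in the difference was not tested. With dim probe sets left out, 23 genes of the lists rose. In that setting 1789 of all genes rose, among fewer genes, so that share was above 14.5%. Around the eIF2 phosphorylation that PEK carries out, in a list that also holds another eIF2alpha kinase, Gcn2, and the eIF2 subunit gene eIF2beta, 1 of 5 measured genes rose and 1 fell. The gene that rose was P58IPK, whose mammalian counterpart assists BiP in the ER, with 12.47, 12.49 and 12.49 on the induced arrays and 12.23, 12.25 and 12.30 on the S2 control arrays (log2 change 0.23, SE 0.05, adjusted p = 0.00691 in limma). PPP1R15, which brings a phosphatase to eIF2alpha and so opposes PEK, fell by 0.22 (SE 0.05, adjusted p = 0.00942 in limma). The ATF4 gene crc, a different gene from Calr, whose older symbol Crc differs only in case, stood at 13.16 in induced and 13.22 in S2 control cells (log2 change -0.06, adjusted p = 0.452 in limma).

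Among 17 other ER folding factors, 4 rose, 1 fell and 12 did not pass, with a median log2 change of 0.03. Over all genes 14.5% rose and 16.0% fell. Uggt, the glucosyltransferase that returns unfolded glycoproteins to calnexin, read 11.77, 11.70 and 11.75 on the induced arrays and 11.39, 11.39 and 11.34 on the S2 control arrays. Its log2 signal rose by 0.37 (SE 0.05, adjusted p = 0.000510 in limma), beside the -0.05 of Cnx99A, whose client cycle it serves. The largest change of this list was that of l(3)80Fg, which rose by 0.88 on a probe set that can cross-hybridise and by 0.83 on another of its own (adjusted p = 4.37e-05 and 0.000214 in limma). Sil1, whose mammalian counterpart is a nucleotide exchange factor of BiP, fell by 0.17 (SE 0.05, adjusted p = 0.0393 in limma), which did not pass without any 1 array other than S2 control replicate 2 (adjusted p = 0.0845 to 0.114). The remaining pair that rose, named after its values were seen, was the J-domain gene shv (0.29), whose protein family assists Hsp70s, and CG9302 (0.27).

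In ER-associated degradation, which returns misfolded proteins to the cytosol and is another known target of the response, 1 of 9 measured genes rose and 2 fell, with a median of -0.02. The shares over all genes were 14.5% higher and 16.0% lower. Edem2, of the lectin-like mannosidase family, rose by 0.27 (SE 0.07, adjusted p = 0.0115 in limma). Its signal averaged 6.75 in induced and 6.48 in S2 control cells, not far above the median of all values. Npl4 and Ufd1, partners of the segregase TER94, fell by 0.27 (SE 0.05) and 0.16 (SE 0.05). The falls had adjusted p = 0.00332 and 0.0347 in limma, and that of Ufd1 did not pass without any 1 array other than S2 control replicate 2 (adjusted p = 0.0749 to 0.120).

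At the entry into the ER, 7 of 16 measured genes of the translocon, signal recognition and signal peptidase rose and 0 fell in limma (0 lower at an unadjusted p under 0.05), with a median of 0.09. Without induced replicate 2, 3 of the 16 rose. Of all genes 14.5% rose and 16.0% fell in the main fit. Sec61gamma, a subunit of the channel, rose by 0.24 and Spase12, of the signal peptidase, by 0.21 (SE 0.05 each, adjusted p = 0.00473 and 0.00958 in limma). Groups of arrays did not overlap for 45.4% of all genes, counting both directions. All 5 measured genes of the oligosaccharyl transferase, which attaches the sugar chain that calnexin later reads, had induced arrays above the S2 control arrays. Of these 3 passed (OstDelta by 0.25, Stt3A by 0.23, and Dad1, named after its values were seen, by 0.21, with adjusted p = 0.00302, 0.00780 and 0.00922 in limma), and the list's median was 0.21. All 5 passed with dim probe sets left out, with a further quantile normalisation, with trend and robust moderation and with a gene's probe sets averaged. Of 13 measured genes of COPII export and ER retrieval, 2 rose and 0 fell (0 lower at an unadjusted p under 0.05), Sec24CD by 0.20 and betaCOP by 0.18 (adjusted p = 0.0319 and 0.0381 in limma), with a median of 0.03. Neither passed without any 1 induced array or S2 control replicate 2, and betaCOP did not without S2 control replicate 3 (adjusted p = 0.0591) or with ribosomal centring (0.0576) either. No list was tested as a set, and whether the lists differ from each other was not tested.

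**Figure D3:**
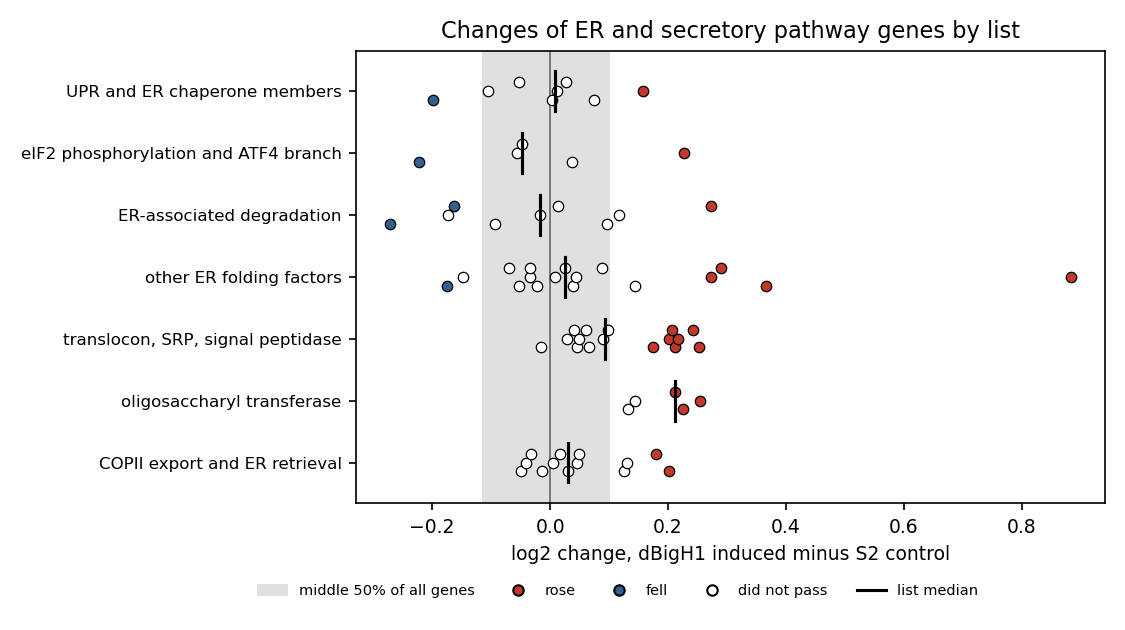
Each point is the log2 change of 1 gene, dBigH1 induced minus S2 control, by list, red where it rose, blue where it fell and white where it did not pass; black bars are list medians and the grey band lies between the quartiles of all genes. The 8 measured genes of the unfolded protein response and ER chaperones centre on 0.01, the 5 oligosaccharyl transferase genes on 0.21, and the point at 0.88 is l(3)80Fg.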

How the data were processed

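Per the submitters' processing notes, the authors made the deposited log2 signals with RMA, a method of background correction, normalisation across arrays and probe summary; the notes name no version. Per the labels' protocols, each sample gave 25 ng of RNA for amplification with a biotin label. Of 18952 probe sets, 183 are platform controls, which were not tested. Of the others, 13647 had 1 gene in the platform annotation, 402 several and 4720 none (unnamed here). Gene identifiers linked 13544 of the probe sets with 1 gene to RefSeq's Release 6 table, with the letter case of symbols kept. Each gene stands for its probe set with the highest mean signal.

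The comparison was fitted in limma 3.58.1 (R 4.3.3; group alone as a term, moderation without trend, two-sided), with adjustment over 18769 probe sets and a threshold of 0.05. SE, 95% intervals and adjusted p-values come from this fit, and those given for an alternative from limma under that alternative. The procedure was tested on simulated data. With 3 arrays a group, no exact permutation p can be under 0.1, so none was computed. The members and lists were chosen with earlier results of these data known. All members with a probe set were described, and from each pathway list up to 2 genes per direction that passed, by smallest adjusted p. Detection calls were not used. The number of arrays limits the precision. Alternatives left out dim probe sets, changed the scaling, the moderation, the array weights or the threshold, added the replicate number as a block, left out each array in turn, averaged a gene's probe sets, left out Pdi (chosen after seeing the data), or left out probe sets with the suffix s, x or a.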

Additional observations from a re-analysis of the deposited data

How the results depend on the processing

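The passing of 1 member upwards (ERp60) and 1 downwards (Atf6) depended on the setting. Neither passed with the replicate number as a block (0 higher and 0 lower), at an adjusted p under 0.01 (0 and 0) or without s, x and a probe sets (0 and 0), where both genes lose their probe set by construction. With arrays centred on ribosomal protein probe sets 0 rose. With each array left out in turn, 0 to 1 rose and 0 to 1 fell, and both calls held only without S2 control replicate 1. Both held with array weights, robust moderation with a trend, probe set means, dim probe sets left out, median centring and a further quantile normalisation. The dimmer Ire1 probe set passed in 5 of 14 settings, with adjusted p from 0.0158 to 0.178 over all of them. The near-zero change of Hsc70-3 turned negative with ribosomal centring (-0.0206) and ranged from -0.0247 to 0.0364 with 1 array left out. That of Gp93 turned negative with ribosomal centring (-0.0123). In the 6 pathway lists, against 18 and 4, 27 rose and 6 fell with trend and robust moderation, 23 and 5 with dim probe sets left out, 21 and 4 with a further quantile normalisation, 20 and 4 with probe set means, 17 and 5 with ribosomal centring, 15 rose and 2 fell with the replicate block, 10 rose and 2 fell at the stricter threshold, and 12 to 17 rose and 2 to 4 fell with 1 array left out (4 only without S2 control replicate 2). With the block Ufd1, Sil1, Sec24CD and betaCOP did not pass either (adjusted p = 0.0645, 0.0741, 0.0502 and 0.0753 in limma). Of the COPII and retrieval genes 4 rose with dim probe sets left out and with trend and robust moderation. The counts over all genes moved as well, from 1739 higher and 1918 lower in the main fit. With trend and robust moderation 2044 rose and 2139 fell, and with a further quantile normalisation 1797 and 1870. Probe set means gave 1882 and 2041, ribosomal centring 1517 and 2179, and the block 1549 and 1727. With dim probe sets left out 1789 rose and 1736 fell, among fewer genes. At the stricter threshold 1656 probe sets rose and 1613 fell, and 1077 genes rose and 1279 fell. Leaving out 1 array gave 1285 to 1554 genes higher and 1526 to 1805 lower. No pairing of the arrays by replicate number was seen. Deviations of same-numbered arrays from their group means correlated at 0.04, -0.10 and 0.01, and those of differently numbered arrays at -0.14 to 0.14. With 3 arrays a group these values cannot settle whether the arrays are paired. Where no other reason is given, the cause was not tested. Of Pdi, the signal over background limits what can be seen.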
